A study of Mus musculus with 72 samples.

Results

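The genes described here are 35 members of the nuclear receptor family, found among the 55416 genes counted in the series by the match of their Ensembl identifiers to gene symbols. They were chosen by name and not by a cut on a measured value, but with earlier results of these data known. All 35 had a row in the count table. RNA was sequenced from epididymal white adipose tissue (eWAT), liver and pituitary of 24 male mice, 6 in each of 4 groups, which gave 72 libraries. All groups were of the "sighted" FVB strain, with no gene altered between groups. FED marks offspring of dams that ate freely, and CR20 marks offspring of dams given 20% less food, starting on embryonic day 15 and ending with lactation. By the study's methods the food of CR20 dams had a set minimum, so the cut could be smaller just before birth. Offspring of all groups were weaned on postnatal day 21. From 8 weeks of age the mice ate either CTRL, a diet of 10% fat, or HFD, a diet of 45% fat. The groups were FED-CTRL, FED-HFD, CR20-CTRL and CR20-HFD. The pups of a dam were split between the diets, so that CTRL and HFD mice of a dam group can be littermates, and the litter of a mouse was not used here. Mice within a group can be littermates as well. Food was restricted per dam, while each mouse was counted as a replicate. The p-values of the dam comparisons and of the interaction of dam and diet therefore reflect the spread between offspring and not between dams. The time on the diet was 10 weeks by the study's description of the sequenced males, while its methods and the sample labels allow 10 or 16 weeks. The libraries came from pieces of eWAT and liver and from the pituitary, so that each value is an average over the cell types of the sample, and fewer cells of a type cannot be told apart from less RNA per cell.

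Nuclear receptors are transcription factors that bind DNA through a shared zinc-finger domain, and many of them are switched by a small fat-soluble ligand that fits a pocket in the protein. The retinoid X receptors (Rxra, Rxrb, Rxrg) are the common partner with which the retinoic acid, thyroid hormone, vitamin D, liver X, PPAR and xenobiotic receptors bind DNA as pairs. Steroid receptors (Esr1, Esr2, Pgr, Nr3c2) act mainly as pairs of their own kind, and the orphan receptors, such as the COUP-TFs (Nr2f1, Nr2f2, Nr2f6) and the immediate-early Nr4a genes, have no established hormone. In adipose tissue and liver the family sets lipid storage, bile acid and drug metabolism, and in the pituitary it carries hormone feedback.

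Each library held 9842813 to 27601208 counts, and 3 counts, taken as the detection floor, stood at 0.109 to 0.305 CPM. CPM is the count of a gene scaled to one library total shared by all libraries, and this floor reflects counting error alone. The floor and the marker sums were scaled by the plain library total, and single genes by a total adjusted for library composition (TMM). A single gene can therefore stand slightly above a marker sum that holds it, as Adam7 did in the eWAT of CR20-CTRL mouse 4. Summed tissue markers stood highest in the labelled tissue: adipocyte markers were at 5110 to 23600 CPM in eWAT, hepatocyte markers at 67100 to 113000 CPM in liver and pituitary hormone genes at 250000 to 366000 CPM in pituitary. Several libraries stood apart from their group. The eWAT of CR20-CTRL mouse 5, CR20-CTRL mouse 4 and CR20-HFD mouse 7 held RNA of genes that the other eWAT libraries held at or near 0, among them Pax8 and Cdh16. The summed epididymis and testis markers were at 132, 62.1 and 26.5 CPM in the eWAT of CR20-CTRL mice 4 and 5 and CR20-HFD mouse 6, and at 0 to 0.233 CPM in the other eWAT libraries. The eWAT of FED-HFD mice 10 and 13 and of CR20-CTRL mouse 5 held the most hepatocyte marker RNA, at 741, 147 and 629 CPM against a median of 22.4 CPM. The eWAT of FED-HFD mouse 23 had the highest macrophage marker sum (11400 CPM) and the lowest adipocyte marker sum (5110 CPM). In the liver, CR20-CTRL mice 4 and 5 had hepatocyte marker sums of 74500 and 67100 CPM, the lowest of their group. Results that rest on these libraries are given with and without them.

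In each pair of tissues most tested members differed in level, as did most of all tested genes. To compare genes with each other, levels were taken as RPKM, which is CPM per kilobase of exon sequence, on a scale set over all 72 libraries. Between liver and eWAT, 21 of 33 tested members differed at an adjusted p under 0.055 (edgeR) and an absolute log2 fold change of at least 1, of which 13 were higher in liver. Of all tested genes, 51.7% met the same rule and 19.5% did so with the higher level in liver. Between pituitary and eWAT 18 members differed (14 higher in pituitary), against 54.1% of all genes (26.7% higher). Between pituitary and liver 26 differed (15 higher in pituitary), against 62.3% of all genes (34.5% higher). Liver exceeded both other tissues for 9 of the 33 members and for 14.5% of all genes. The pituitary exceeded both for 11 members and for 20.6% of all genes, and eWAT exceeded both for 0 members and for 13.9% of all genes.

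Of the 9 members highest in liver, Hnf4a, the factor that keeps hepatocyte identity, had a median of 140 RPKM there. Its eWAT median was 0.0118 RPKM, and in the pituitary it had 0 counts in 19 of 24 libraries. Rxra stood at 73.5 RPKM in liver, 29.1 RPKM in eWAT and 10.1 RPKM in pituitary. The xenobiotic sensors Nr1i2 (PXR) and Nr1i3 (CAR) reached 45.1 and 24.1 RPKM in liver and had a median of 0 RPKM in the pituitary. The liver values of these genes did not overlap with those of the other tissues. Nr5a2 (LRH-1, a regulator of bile acid genes) had a median of 6.19 RPKM in liver, 0.227 RPKM in eWAT and 0.135 RPKM in pituitary. The circadian receptor Rora, the COUP-TFs Nr2f2 and Nr2f6 and the orphan Esrrb completed the 9. Nr1h3 (LXRα, the oxysterol sensor) was at 37 RPKM in liver and 22.9 RPKM in eWAT, a log2 fold change of 0.84 (SE 0.074) that did not reach the minimum, and at 2.41 RPKM in pituitary.

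In the pituitary, Thra, the thyroid hormone receptor α, had the highest median of the family (23.8 RPKM), above its 8.78 RPKM in eWAT and 1.73 RPKM in liver. Its sister Thrb, which carries thyroid hormone feedback, was at 3.46 RPKM in pituitary, 4.61 RPKM in liver and 2.06 RPKM in eWAT. Thus the order of tissues for Thra was pituitary, eWAT, liver, and for Thrb liver, pituitary, eWAT. Rxrg stood at 14.3 RPKM in pituitary against 3.14 RPKM in eWAT and 2.17 RPKM in liver, which placed it above Rxra (10.1 RPKM) and Rxrb (9.64 RPKM) in that tissue. The estrogen receptor Esr1 was at 7.44 RPKM in pituitary, 2.7 RPKM in eWAT and 2.55 RPKM in liver, and eWAT and liver did not differ by the test (adjusted p = 0.157 by edgeR). Its relative Esr2 had at most 0.31 CPM in any library of the 3 tissues and failed the filter on low counts.

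Nr0b1, Rorb and Pgr were close to undetected outside the pituitary. Nr0b1 (DAX1, a corepressor of the gonadotrope and adrenal lineages) had a median of 1.73 RPKM there, with 0 counts in all 24 liver libraries and in 23 of 24 eWAT libraries. Rorb (1.55 RPKM) and the progesterone receptor Pgr (0.485 RPKM) were likewise at a median of 0 RPKM in liver. Vdr, the vitamin D receptor, was at 4.47 RPKM in pituitary against 0.226 RPKM in eWAT and 0.0421 RPKM in liver. The mineralocorticoid receptor Nr3c2 followed with 3.54, 0.757 and 1.62 RPKM in pituitary, eWAT and liver, and the activity-induced Nr4a2 with 1.65, 0.0808 and 0.0738 RPKM. At the other end, Rxrb lay between 8.51 and 11 RPKM, Nr1h2 (LXRβ) between 14.3 and 20.9 RPKM and Nr2c1 between 0.77 and 0.955 RPKM in the medians of the 3 tissues. These 3 members had no tissue difference of log2 fold change 1 or more. Hnf4g failed the filter, with at most 0.556 CPM in any library.

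**Figure D1:**
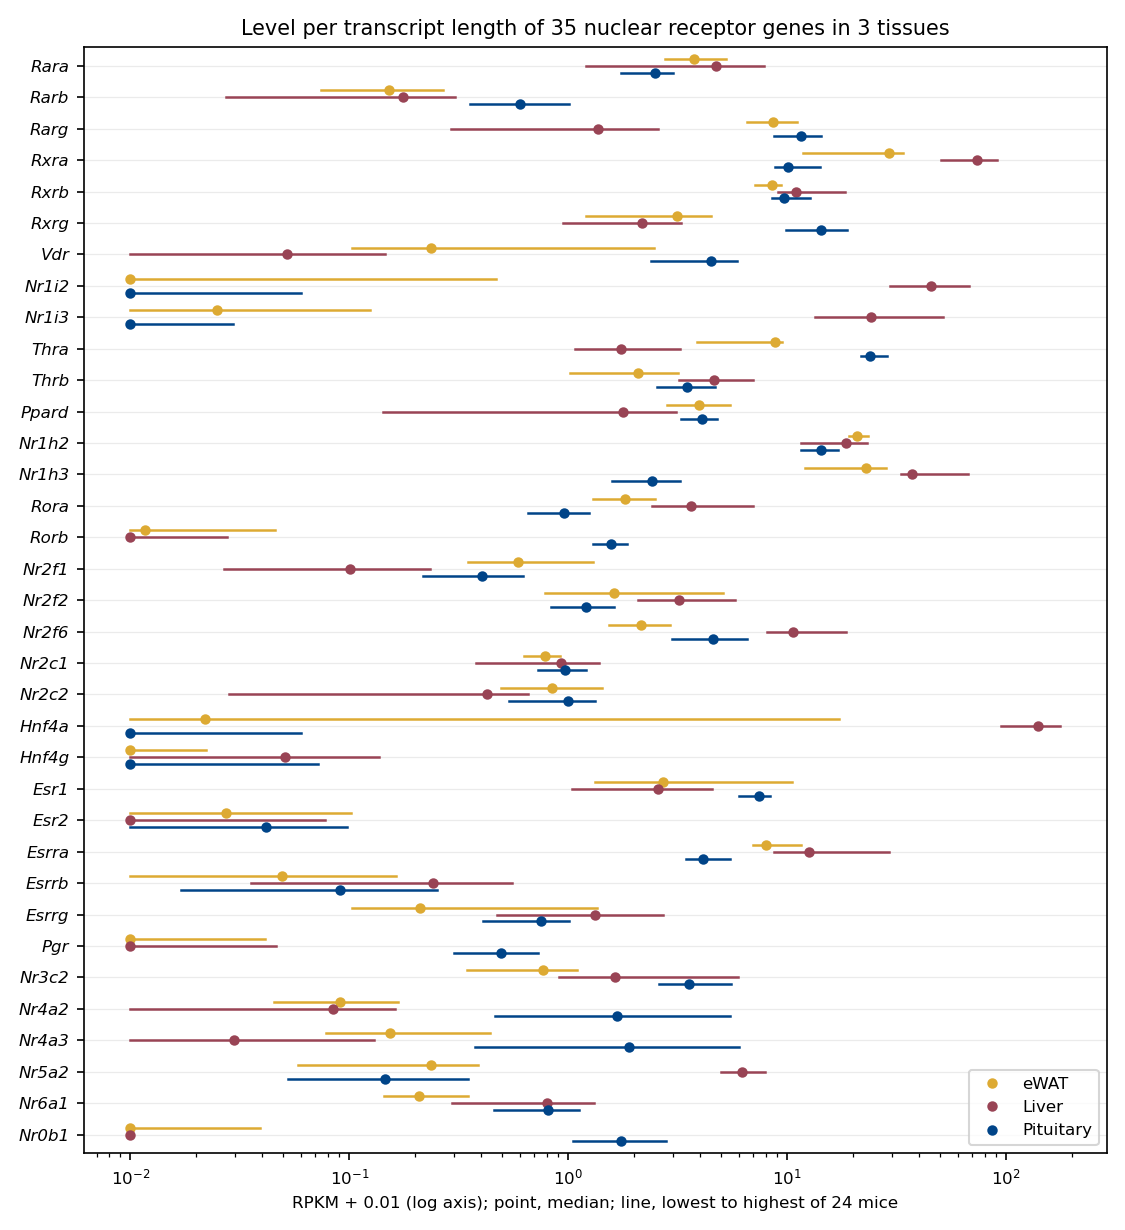
Median level (points) and lowest to highest value (lines) of the 35 nuclear receptor genes over 24 mice in eWAT, liver and pituitary, as RPKM + 0.01 on a log axis. Hnf4a, Nr1i2, Nr1i3 and Nr5a2 stand far to the right in liver, Nr0b1, Rorb, Pgr and Vdr in pituitary, while Rxrb, Nr1h2 and Nr2c1 lie close together in the 3 tissues; the long eWAT line of Hnf4a comes from CR20-CTRL mouse 5.

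Within a tissue, the 4 groups were compared with the quasi-likelihood test of edgeR, fitted to the counts, with p-values adjusted over all genes tested by the Benjamini-Hochberg method, and a gene was called at an adjusted p under 0.055. Levels in the following are CPM on the scale of one tissue. In eWAT, 27 of the 35 members passed the filter on low counts (Nr1i2, Nr1i3, Rorb, Hnf4a, Hnf4g, Esr2, Pgr and Nr0b1 did not). The question of the first comparison was what a high fat diet changed in mice born to normally fed dams. In FED-HFD against FED-CTRL, 3 members were called and all 3 were lower: Thra, Rora and Rxra. Of all genes tested, 11.1% were called in either direction and 3.01% were called lower. Of the 27 tested members, 20 had a log2 fold change below 0 (74.1%, against 50.3% of all genes), with a median of -0.09 against -0.002 over all genes. At a minimum absolute log2 fold change of 0.58, used by the study, Thra alone was called, against 8.01% of all genes.

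Thra (chromosome 11, 98629109 to 98661924, plus strand, GRCm39) stood at 74.2, 83.5 and 88 CPM (lowest, median and highest of 6 mice) in FED-CTRL and at 37.1, 55.3 and 65.5 CPM in FED-HFD. In the offspring of restricted dams it was at 83.8, 89.8 and 101 CPM in CR20-CTRL and at 80.3, 87.4 and 93.9 CPM in CR20-HFD. Every FED-HFD mouse lay below every mouse of the other 3 groups. The log2 fold change of FED-HFD against FED-CTRL was -0.59 (SE 0.094, adjusted p = 0.00297 by edgeR), a fall of 33.4%, and Thra was the only tested member whose FED-HFD and FED-CTRL values did not overlap (6.76% of all genes did not). Mouse 23 had the lowest value, and leaving out any single mouse kept the call, with log2 fold changes of -0.65 to -0.50.

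Rora, a receptor that activates clock and lipid genes, was at 30.8, 38.6 and 43.3 CPM in FED-CTRL and at 26.7, 28.6 and 31.4 CPM in FED-HFD, a log2 fold change of -0.41 (SE 0.091, adjusted p = 0.00635 by edgeR). The medians of the CR20 groups lay between, at 30.4, 32.7 and 36.3 CPM (CR20-CTRL) and 23.4, 31.4 and 35.6 CPM (CR20-HFD), so that Rora overlapped between all pairs of groups. Rxra, the obligate partner of many of the other receptors, was at 229, 268 and 285 CPM in FED-CTRL and at 98.1, 194 and 261 CPM in FED-HFD (log2 fold change -0.47, SE 0.14, adjusted p = 0.0387 by edgeR). Of the 6 FED-HFD mice, 5 were below all FED-CTRL mice, and mouse 23 was the lowest. The call on Rxra was lost when FED-HFD mouse 12, 13 or 23 or FED-CTRL mouse 15, 16, 24 or 41 was left out, with adjusted p-values of 0.0551 to 0.0873, and without mouse 23 its log2 fold change was -0.34. Over all 31 alternative fits the call on Rxra was lost in 8, these among them. Without CR20-CTRL mice 4 and 5 and CR20-HFD mice 6 and 7, Nr2f2 was called lower beside Thra, Rora and Rxra (log2 fold change -0.54, adjusted p = 0.0231 by edgeR). Rxrb (log2 fold change -0.01) and Rxrg (-0.04) were not called.

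Of the 2 Rxra start sites in the RefSeq promoter table, 1 lies in CG-rich sequence and the other in sequence that holds the nuclear receptor half-site. The 250 bases before each start are shown because Rxra is the shared partner of the family, with each AGGTCA (either strand) in capitals. Of the 32851 such windows of all genes, 14% hold the half-site, as do 7 of 52 windows of the members (13.5%). Neither a direct repeat of the half-site with 4 or 1 bases between the copies nor a half-site preceded by AANT, the ROR element, is in a window of a member, on either strand. Of all windows, 0.0152%, 0.0335% and 0.177% hold them. A match is a string of letters and not a binding site. Thra and Hnf4g have no entry.
Rxra, chr2:27676951-27677200 (GRCm38.p6, plus strand): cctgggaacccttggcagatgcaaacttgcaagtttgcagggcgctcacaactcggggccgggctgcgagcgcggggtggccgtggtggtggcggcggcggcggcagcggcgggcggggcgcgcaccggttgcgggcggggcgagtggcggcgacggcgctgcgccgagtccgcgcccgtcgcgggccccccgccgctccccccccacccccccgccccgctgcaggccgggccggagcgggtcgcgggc
Rxra, chr2:27709042-27709291 (GRCm38.p6, plus strand): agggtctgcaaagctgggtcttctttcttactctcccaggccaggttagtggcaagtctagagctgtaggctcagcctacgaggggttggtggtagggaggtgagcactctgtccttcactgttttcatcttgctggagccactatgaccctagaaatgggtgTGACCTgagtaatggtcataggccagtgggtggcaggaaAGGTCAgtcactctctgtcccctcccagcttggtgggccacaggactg

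The second comparison asked how the dam's diet altered the state reached on the high fat diet. In CR20-HFD against FED-HFD, 3 members were called and all 3 were higher: Thra, Nr2f1 and Nr2f6. Of all genes tested, 15.7% were called and 5.28% were called higher. Of the 27 tested members, 22 had a log2 fold change above 0 (81.5%, against 52.8% of all genes), and the median was 0.22 against 0.02 over all genes. At a minimum absolute log2 fold change of 0.58, Thra and Nr2f1 were called, against 9.73% of all genes. The 6 FED-HFD libraries enter both this comparison and the one of FED-HFD with FED-CTRL, so that their values are not independent. For Thra the log2 fold change was 0.69 (SE 0.094, adjusted p = 0.000522 by edgeR), or 60.8% higher in CR20-HFD.

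The COUP-TF genes Nr2f1 and Nr2f6, orphan receptors that mostly repress transcription and compete with other receptors for DNA, were higher in offspring of restricted dams. Nr2f1 was at 3.84, 4.98 and 9.03 CPM in CR20-HFD and at 2.41, 3.4 and 4.15 CPM in FED-HFD (log2 fold change 0.76, SE 0.24, adjusted p = 0.0308 by edgeR). Nr2f6 was at 11.9, 13.9 and 15.9 CPM in CR20-HFD and at 9.29, 9.63 and 13.5 CPM in FED-HFD (log2 fold change 0.39, SE 0.13, adjusted p = 0.0413 by edgeR). Both overlapped between the groups. On the CTRL diet the same contrast of dams gave log2 fold changes of 0.42 for Nr2f1 (adjusted p = 0.784 by edgeR) and 0.42 for Nr2f6 (adjusted p = 0.285 by edgeR), and neither was called there. The third COUP-TF, Nr2f2, was at 15.9, 19.3 and 25.4 CPM in CR20-HFD and at 8.81, 12.8 and 15.5 CPM in FED-HFD, with no overlap (6.66% of all genes did not overlap), but it missed the threshold (log2 fold change 0.69, SE 0.25, adjusted p = 0.0627 by edgeR).

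The calls on Nr2f1 and Nr2f6 depended on single libraries. Nr2f1 was lost without FED-HFD mouse 12, 13 or 23 or CR20-HFD mouse 31 or 32 (adjusted p 0.0555 to 0.0956; without CR20-HFD mouse 32 its log2 fold change was 0.58). Nr2f6 was lost without FED-HFD mouse 10, 13, 23 or 40 or CR20-HFD mouse 7, 45 or 46 (adjusted p 0.0684 to 0.0918). Without FED-HFD mouse 13 or mouse 23, Thra was the 1 member called, and without FED-HFD mouse 11 or CR20-CTRL mouse 5 there were 5, Nr2f2 among them. Without the 4 libraries of CR20-CTRL mice 4 and 5 and CR20-HFD mice 6 and 7, 5 members were called: Thra, Nr2f1, Nr2f2 (log2 fold change 0.62, adjusted p = 0.021 by edgeR), Rarg and Vdr. Nr2f6 was not called in that fit (adjusted p = 0.0767 by edgeR), nor was it, or Nr2f1, without FED-HFD mice 10 and 13 (adjusted p = 0.148 and 0.0758 by edgeR), with no filter on low counts (0.104 and 0.0664) or with the range of animal numbers as a covariate (0.0565 and 0.0583). Both fits without several mice were chosen after seeing the data.

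**Figure D2:**
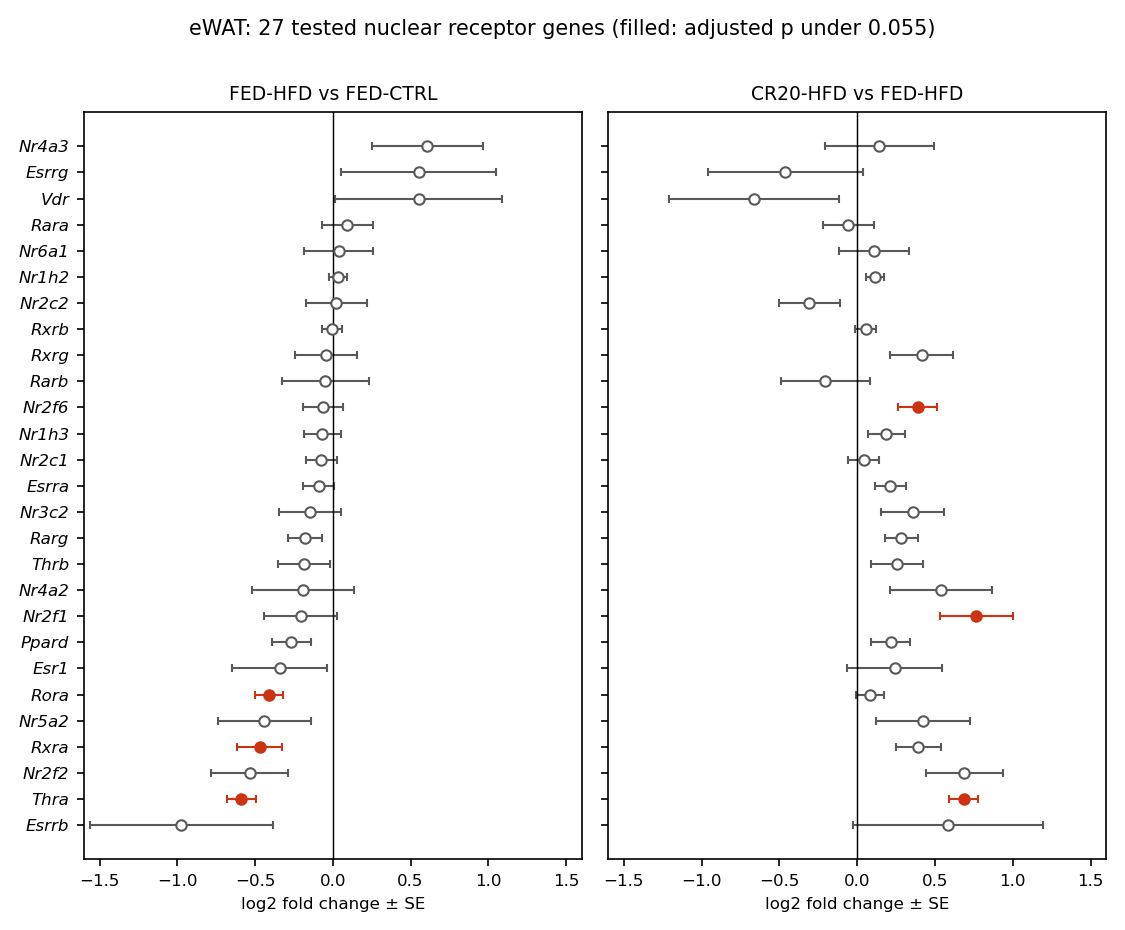
Log2 fold change with its standard error for the 27 tested members in eWAT, FED-HFD against FED-CTRL (left) and CR20-HFD against FED-HFD (right), ordered by the left panel; filled points passed an adjusted p under 0.055. On the left 20 members lie below 0 and on the right 22 lie above it, and Thra is filled on both sides, which share the FED-HFD libraries.

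The 2 remaining comparisons called no member. In CR20-CTRL against FED-CTRL, 0 of 27 members and 0% of all genes were called by edgeR, 6 members and 7.39% of all genes had an unadjusted p under 0.05, and voom and DESeq2 called 0. In CR20-HFD against CR20-CTRL, 0 of 27 members and 0% of all genes were called by edgeR, 4 members and 6.03% of all genes had an unadjusted p under 0.05, and voom and DESeq2 called 0. For Thra the change with the diet was -0.05 (SE 0.093) in offspring of restricted dams and -0.59 in offspring of FED dams. The difference between these changes, tested as the interaction of dam and diet, was 0.54 (SE 0.13, adjusted p = 0.0378 by edgeR). Thra was the 1 member called for the interaction, where 2.44% of all genes were called, and 0.094% were called in its direction. At the minimum of 0.58 no member was called, against 2.42% of all genes. That call was fragile: it was lost in 12 of the 24 fits that left out 1 mouse, with adjusted p-values of 0.0569 to 0.0774 and log2 values of 0.52 to 0.58. The mice concerned were FED-HFD mouse 12, FED-CTRL mice 15, 16, 24, 41 and 42, CR20-CTRL mice 5, 47 and 49 and CR20-HFD mice 7, 31 and 32. Without CR20-CTRL mouse 48, 2 members were called, Thra and Vdr. Without the 4 CR20 libraries named above the interaction of Thra was 0.56 with an adjusted p of 0.202 by edgeR.

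The exons of Thra share 1694 bases (21.4% of their length) with Nr1d1, the gene of the clock repressor REV-ERBα, which lies on the opposite strand. The library kit keeps the strand, but the strand setting of the counting is not stated, so reads from the shared part cannot be assigned with certainty. Nr1d1 was at 162, 182 and 210 CPM in FED-CTRL, 59.9, 107 and 126 CPM in FED-HFD, 150, 170 and 204 CPM in CR20-CTRL and 75.5, 110 and 197 CPM in CR20-HFD. It fell in FED-HFD against FED-CTRL (log2 fold change -0.81, SE 0.18, adjusted p = 0.00658 by edgeR), as Thra did. In CR20-HFD, however, Nr1d1 had a median near that of FED-HFD while Thra stood at the level of the CTRL groups, and Nr1d1 was not called in CR20-HFD against FED-HFD (log2 fold change 0.19, adjusted p = 0.499 by edgeR). It was not called in CR20-HFD against CR20-CTRL either (-0.53, adjusted p = 0.789 by edgeR) or for the interaction (0.27, adjusted p = 0.585 by edgeR), and the difference between the genes was not tested. Nr2f6 shares 57.1% of its exon length with Ocel1 on the opposite strand, whose log2 fold change in CR20-HFD against FED-HFD was 0.22 (adjusted p = 0.18 by edgeR). Nr2f1 shares 17.5% with A830082K12Rik (0.42, adjusted p = 0.187 by edgeR).

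**Figure D3:**
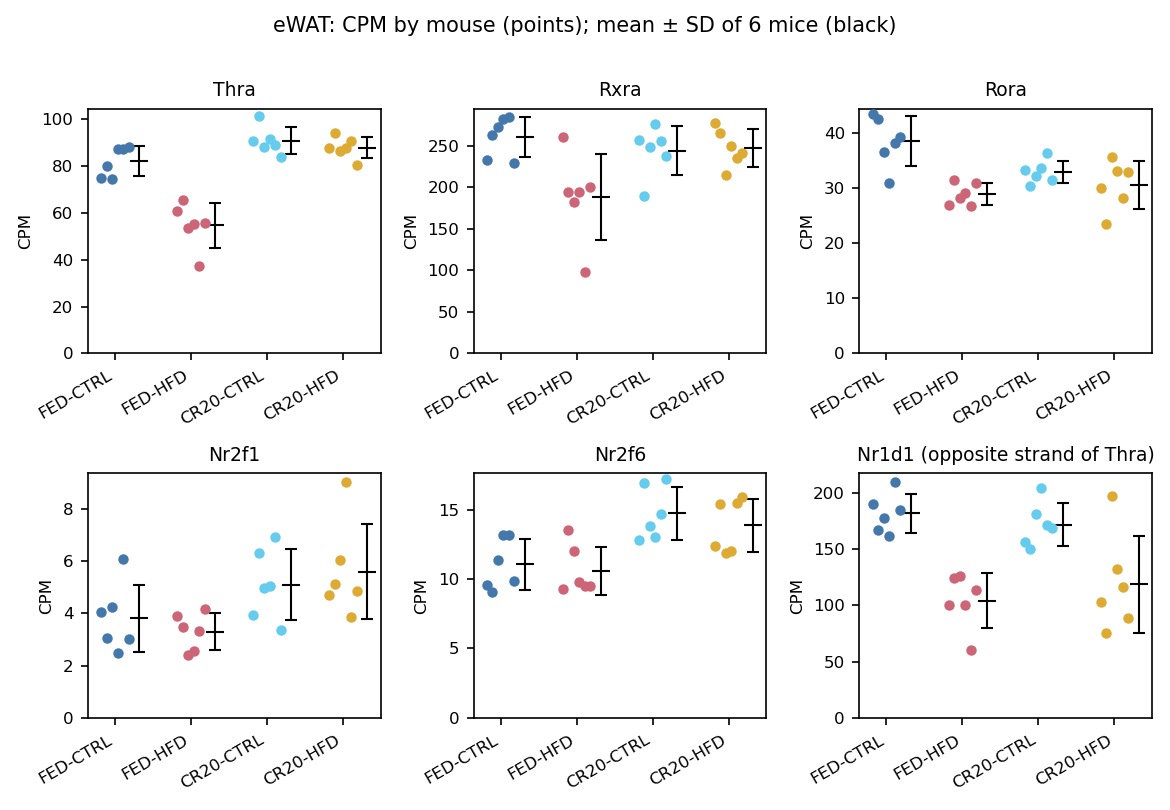
CPM by mouse in eWAT for the 5 called members and for Nr1d1, which overlaps Thra on the opposite strand; points are mice and the black mark is the mean ± SD of 6 mice. The 6 FED-HFD mice lie below all others for Thra (37.1 to 65.5 CPM), and Nr1d1 is below all CTRL mice in the FED-HFD mice and in 5 of the 6 CR20-HFD mice, with the last at 197 CPM.

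Macrophage markers moved with the same groups, and adipocyte markers in part. The summed macrophage markers were at 1530, 1840 and 2190 CPM in FED-CTRL and 2280, 3610 and 11400 CPM in FED-HFD, and 8 of the 12 markers were called higher. In CR20-HFD the sum was 1280, 1650 and 2190 CPM, and 9 of 12 were called lower than in FED-HFD. The adipocyte sum was 17700, 19000 and 21000 CPM in FED-CTRL, 5110, 16200 and 18400 CPM in FED-HFD and 20300, 21800 and 22300 CPM in CR20-HFD. Of the 7 adipocyte markers, 0 were called by edgeR in FED-HFD against FED-CTRL, where the sums overlapped, and 2 were called higher in CR20-HFD against FED-HFD. Both sums thus separated FED-HFD from CR20-HFD as Thra did. FED-HFD mouse 23, with the highest macrophage and the lowest adipocyte sum, had the lowest Thra (37.1 CPM) and Rxra (98.1 CPM), and without it Thra remained called in both comparisons. The part of the cell makeup in the values of the members was not tested.

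Among nuclear receptors outside the list of members, Nr1d1 and the glucocorticoid receptor Nr3c1 (log2 fold change -0.38, adjusted p = 0.0429 by edgeR) fell in eWAT in FED-HFD against FED-CTRL. Among 18 coregulators, Tbl1x and Hr, a corepressor of thyroid hormone receptors, fell in that comparison, and in CR20-HFD against FED-HFD Hdac3 was higher and Tbl1xr1 and Ncoa3 were lower. Hr changed by -1.00 (adjusted p = 0.0418 by edgeR) in FED-HFD against FED-CTRL.

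Genes that respond to the receptors or handle their ligands moved in both directions. In FED-HFD against FED-CTRL, of 9 tested genes of thyroid hormone handling and response, Gpd2 (mitochondrial glycerol-phosphate dehydrogenase) fell by 0.86 on the log2 scale and Dio2, which makes the active hormone, rose by 1.81. Of 10 tested LXR targets, the sterol exporter Abcg1 (1.10) and the lipid transfer protein Pltp (1.36) rose. CR20-HFD against FED-HFD gave lower Abcg1 (-0.96) and Pltp (-0.99) and higher Apoe (0.77). Of 13 tested PPARδ and ERR targets, Pdk4 (1.71), Plin2 (1.05) and Cpt1a (0.62), all genes of fat use or storage, rose in FED-HFD, and all 3 were lower in CR20-HFD against FED-HFD (-0.77, -1.10 and -0.56). The median of the 13 pointed the other way in both comparisons (-0.20 and 0.12), against -0.002 and 0.02 over all genes. The medians of the LXR list were 0.01 and -0.09 and those of the thyroid hormone list -0.27 and 0.18. The shares of all genes called in these comparisons were 11.1% and 15.7%. The changes in LXR, PPARδ and ERR targets went with members (Nr1h3, Ppard, Esrra) that were not called in either comparison. Thra was called in both comparisons, and Rxra, the partner of the LXR and PPAR receptors, was called lower in FED-HFD against FED-CTRL. A link between receptors and responding genes was not tested.

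The smaller lists held few calls. Of 12 tested retinoid genes, Tgm2 rose (0.34) and the retinol carrier Rbp4 fell (-1.21) in FED-HFD against FED-CTRL, and Tgm2 (-0.38) and Bco1 (-0.77) were lower in CR20-HFD against FED-HFD. Of 7 corticosteroid-responsive genes, Hsd11b1, which regenerates active glucocorticoid, fell by 1.41 on the log2 scale in FED-HFD and was higher by 1.21 in CR20-HFD. Of 6 tested xenobiotic targets, Por (-0.59) and Abcb1a (-0.62) fell in FED-HFD. In CR20-HFD against FED-HFD, Cyp27a1 (0.48) was higher among 3 tested vitamin D genes and Igfbp4 (0.45) among 6 tested estrogen and progesterone targets. Abcg1 (-1.05) and Pltp (-1.29) were the 2 genes of these lists called for the interaction of dam and diet.

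The largest excursions of the family in eWAT came from single libraries. Hnf4a, which failed the filter, had 1622 counts (118 CPM) in CR20-CTRL mouse 5, 182 counts (9.03 CPM) in CR20-CTRL mouse 4, 144 counts (11.1 CPM) in CR20-HFD mouse 7, 59 counts (4.98 CPM) in FED-HFD mouse 10 and 14 counts (0.852 CPM) in FED-HFD mouse 13. The other 19 libraries had 0 to 5 counts. The same first 3 libraries held Pax8, a factor of kidney and genital-duct epithelium, at 42.9, 8.93 and 5.26 CPM and the kidney and duct cadherin Cdh16 at 114, 30.8 and 16.3 CPM, whereas the 19 others had at most 0.606 and 0.135 CPM. Adam7, an epididymal gene, was at 51.9 CPM in CR20-CTRL mouse 5 and 133 CPM in CR20-CTRL mouse 4, and had 0 counts in CR20-HFD mouse 7. CR20-HFD mouse 6 held Adam7 at 4.31 CPM and the epididymal gene Crisp1 at 22.1 CPM. FED-HFD mouse 10 had 0 counts of Pax8 and Cdh16 and held Alb at 514 CPM. Hnf4a, Pax8, Cdh16, Adam7, Crisp1 and Alb were singled out here after their values were seen, as were Esr1, Vdr, Esrrg and Nr2f2 in eWAT, Ppard in liver and Nr4a2 in pituitary.

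CR20-CTRL mouse 5 also carried the highest eWAT values of several tested members. Esr1 was at 199 CPM there, against a median of 55.3 CPM in its group, Vdr at 19 CPM against 1.86, Esrrg at 11.3 CPM against 1.82 and Nr2f2 at 64.5 CPM against 22.7. With this library the log2 fold changes of CR20-CTRL against FED-CTRL were 1.71 for Vdr and 1.34 for Esrrg, and those of CR20-HFD against CR20-CTRL were -1.82 and -1.25, none of them called. Without the libraries of CR20-CTRL mice 4 and 5 and CR20-HFD mice 6 and 7 neither gene had an unadjusted p under 0.05 in these 2 comparisons by edgeR. In that fit CR20-HFD against FED-HFD gave a lower level of Vdr (log2 fold change -0.89, adjusted p = 0.0506 by edgeR).

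In the liver, 28 members passed the filter (Vdr, Rorb, Hnf4g, Esr2, Pgr, Nr4a3 and Nr0b1 did not). One member responded to the high fat diet, Nr1i3 (CAR), a receptor that senses drugs and bile pigments and induces cytochrome P450 genes (chromosome 1, 171041506 to 171048270, plus strand, GRCm39). It was at 52.8, 66.7 and 88 CPM in FED-CTRL and 91.7, 131 and 158 CPM in FED-HFD, and at 47.2, 54.9 and 71.2 CPM in CR20-CTRL and 78.8, 107 and 175 CPM in CR20-HFD. On either dam background all HFD mice lay above all CTRL mice. In CR20-HFD against CR20-CTRL the log2 fold change was 0.95 (SE 0.19, adjusted p = 0.0132 by edgeR), and Nr1i3 was the 1 member called, where 0.537% of all genes were called, 0.145% were called higher and 0.508% did not overlap.

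In FED-HFD against FED-CTRL the log2 fold change of Nr1i3 was 0.88 (SE 0.18) with an adjusted p of 0.0551 by edgeR, just outside the limit of 0.055. There 0 of 28 members were called, 4 had an unadjusted p under 0.05 (6.66% of all genes), and 0.109% of all genes were called; voom and DESeq2 each called Nr1i3 alone. The call was also made without FED-HFD mouse 10, CR20-HFD mouse 31 or 45 or CR20-CTRL mouse 5. In CR20-HFD against CR20-CTRL Nr1i3 stayed called without any single mouse, but not without both CR20-CTRL mice 4 and 5 (log2 fold change 0.83, adjusted p = 0.0848 by edgeR), a fit in which it was called in FED-HFD against FED-CTRL. The interaction of dam and diet called 0 members (2 with an unadjusted p under 0.05, against 1.76% of all genes; voom and DESeq2 called 0) and 0% of all genes.

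Nr1i3 shares 75.4% of its exon length with Tomm40l on the opposite strand, a gene of the mitochondrial import machinery. Tomm40l had medians of 9.13, 11.6, 10.3 and 11.2 CPM in FED-CTRL, FED-HFD, CR20-CTRL and CR20-HFD, far below those of Nr1i3, and its log2 fold changes with the diet were 0.17 and 0.10 in offspring of FED and CR20 dams, neither of them called. The 250 bases before the Nr1i3 start are shown because it was the member that the liver results turned on, and they hold no AGGTCA on either strand.
Nr1i3, chr1:171213720-171213969 (GRCm38.p6, plus strand): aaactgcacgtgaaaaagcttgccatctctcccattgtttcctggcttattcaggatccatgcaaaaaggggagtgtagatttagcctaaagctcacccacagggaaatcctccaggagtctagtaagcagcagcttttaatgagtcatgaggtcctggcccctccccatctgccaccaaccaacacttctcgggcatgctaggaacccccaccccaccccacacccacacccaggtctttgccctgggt

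The partner and relatives of Nr1i3 were not called. Rxra had liver medians of 392, 393, 376 and 352 CPM in FED-CTRL, FED-HFD, CR20-CTRL and CR20-HFD, and the fellow xenobiotic receptor Nr1i2 had medians of 89.7, 107, 78.1 and 87.2 CPM. Hnf4a had medians of 488, 547, 520 and 538 CPM. All 3 overlapped between all groups. Of 12 tested xenobiotic targets, Cyp3a11, a drug-metabolising P450, fell in CR20-HFD against CR20-CTRL (log2 fold change -1.41, adjusted p = 0.0438 by edgeR) and none was called in FED-HFD against FED-CTRL; the list medians were 0.14 and 0.29. With the diet, the desaturase Scd1, an LXR target, fell by 5.39 on the log2 scale in CR20 and by 3.93 in FED offspring, and malic enzyme Me1, a thyroid hormone target, fell by 2.08 and 1.43. Over the 10 lists of other receptors, coregulators and responding genes, 97 of 124 genes were tested in liver, and 3 and 2 were called in these comparisons.

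The 2 comparisons of dams called no member in liver. In CR20-CTRL against FED-CTRL, and in CR20-HFD against FED-HFD, 0 of 28 members and 0% of all genes were called by edgeR, 1 member had an unadjusted p under 0.05 (2.17% and 3.58% of all genes), and voom and DESeq2 called 0. The smallest p of a member in the first was that of Nr3c2, at 5.44, 8.46 and 10.6 CPM in FED-CTRL and 6.38, 12.6 and 38.5 CPM in CR20-CTRL (log2 fold change 1.11, SE 0.33, adjusted p = 0.999 by edgeR). Its 2 high values, 27.8 and 38.5 CPM, were those of CR20-CTRL mice 4 and 5, and without them the log2 fold change was 0.28. These 2 livers also had the lowest Ppard (0.734 and 0.759 CPM, against 2.36 to 16.5 CPM in the other 22) and the highest Rora (74.9 and 68.4 CPM). Rarb, a retinoic acid receptor, was at 1.14, 1.34 and 1.76 CPM in FED-CTRL and 0.111, 0.366 and 1.05 CPM in FED-HFD with no overlap, as in 0.791% of all genes, and was not called (log2 fold change -1.32, SE 0.47, adjusted p = 0.507 by edgeR). At these levels a library held few counts of Rarb, and 31.2% of its exon length is shared with Top2b.

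**Figure D4:**
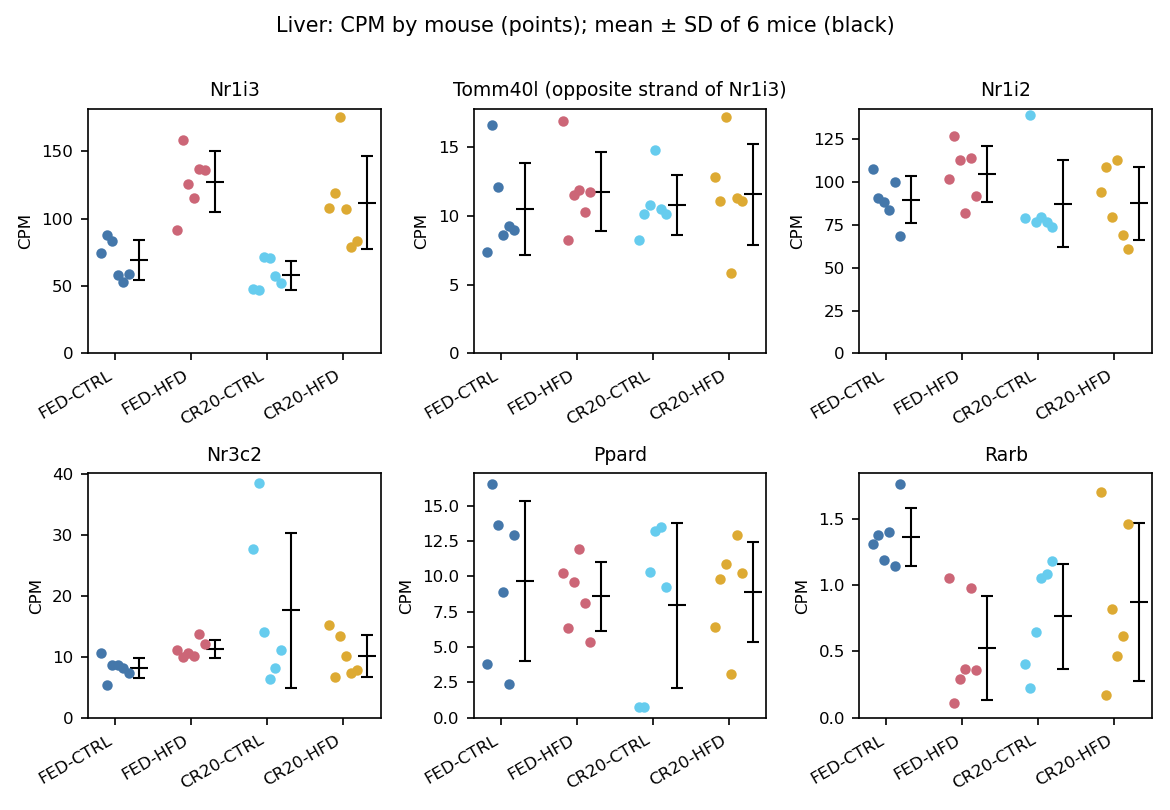
CPM by mouse in liver for Nr1i3, for Tomm40l on its opposite strand, and for Nr1i2, Nr3c2, Ppard and Rarb; points are mice and the black mark is the mean ± SD of 6 mice. Nr1i3 is higher in the HFD mice of both dam groups (78.8 to 175 CPM against 47.2 to 88 CPM), and the 2 high Nr3c2 and 2 low Ppard values of CR20-CTRL belong to mice 4 and 5.

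In the pituitary, 30 members passed the filter (Nr1i2, Nr1i3, Hnf4a, Hnf4g and Esr2 did not). edgeR called 0 members in any of the 4 comparisons and in the interaction, and 0% of all genes. In CR20-CTRL against FED-CTRL 7 of 30 members and 17.3% of all genes had an unadjusted p under 0.05, and voom and DESeq2 each called 1. In CR20-HFD against FED-HFD, FED-HFD against FED-CTRL, CR20-HFD against CR20-CTRL and the interaction, 1, 0, 4 and 3 members had an unadjusted p under 0.05 (6.77%, 9.64%, 7.28% and 11% of all genes), and voom and DESeq2 called 0. Of the 90 tested genes of the 10 lists, edgeR also called 0. Of these 90, 15, 7, 17 and 11 had an unadjusted p under 0.05 in the 4 comparisons in that order. The shares of all genes were 17.3%, 6.77%, 9.64% and 7.28%, so the lists did not match them throughout. In the 4 comparisons voom called 0 of the 90, and DESeq2 called 3 in CR20-CTRL against FED-CTRL and 0 in the other 3.

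The smallest p belonged to Vdr, the receptor of the active form of vitamin D. It was at 27.1, 33.1 and 34 CPM in FED-CTRL, 20, 27.8 and 37.3 CPM in FED-HFD, 15.4, 21.4 and 30.3 CPM in CR20-CTRL and 24.2, 29.3 and 35.8 CPM in CR20-HFD. The groups overlapped, with CR20-CTRL reaching lowest. The log2 fold change of CR20-CTRL against FED-CTRL was -0.49 (SE 0.14, adjusted p = 0.0918 by edgeR). It was called by voom with quality weights (adjusted p = 0.0291) and DESeq2 (adjusted p = 0.0275), and by edgeR without FED-CTRL mouse 42, CR20-CTRL mouse 4 or CR20-CTRL mouse 5 (adjusted p 0.0444 to 0.0478). Nr3c2, which binds aldosterone and corticosterone, was at 24.6, 31.2 and 38.3 CPM in FED-CTRL and 31, 40.5 and 53.9 CPM in CR20-CTRL (log2 fold change 0.37, SE 0.13, adjusted p = 0.156 by edgeR), with overlap.

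Nr4a2 and Nr4a3, orphan receptors that are induced within minutes by stimuli such as releasing hormones, had the largest standard deviations of log2 CPM among the members tested in the pituitary (1.08 and 1.12). Nr4a2 ranged from 4.12 to 49.3 CPM (12-fold) and Nr4a3 from 2.41 to 39.9 CPM (16.6-fold). Esrrb, at 0.0478 to 1.63 CPM, had a wider range in fold near the detection floor. Thra, the most abundant member there, ranged from 194 to 249 CPM. For Nr4a3 the groups held 4.55, 9.41 and 38 CPM (FED-CTRL), 2.41, 12.6 and 39.9 CPM (FED-HFD), 3.34, 6.88 and 14.6 CPM (CR20-CTRL) and 9.85, 16.5 and 33.2 CPM (CR20-HFD). CR20-HFD against CR20-CTRL gave a log2 fold change of 1.33 (SE 0.50, adjusted p = 0.602 by edgeR). All 4 groups overlapped.

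Several mice were high or low for both genes. FED-CTRL mouse 41 had 49.3 CPM of Nr4a2 and 38 CPM of Nr4a3, FED-HFD mouse 40 had 40.7 and 26.2 CPM, and FED-HFD mouse 10 had 4.12 and 2.41 CPM. Animal number moved with these levels: the 11 mice numbered under 20 had a median Nr4a2 of 7.63 CPM and the 8 mice numbered 40 and above one of 22.8 CPM, with ranges of 4.12 to 36.7 CPM and 11.2 to 49.3 CPM. For Nr4a3 the medians were 7.42 and 18.1 CPM. The other immediate-early genes did not order this way throughout: medians were 59.1 and 51.6 CPM for Egr1, 41.9 and 38.5 CPM for Nr4a1 and 10.6 and 15.1 CPM for Fos in the same sets of mice. The part of whatever the numbers stand for was not tested, and the labels do not say what that is.

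**Figure D5:**
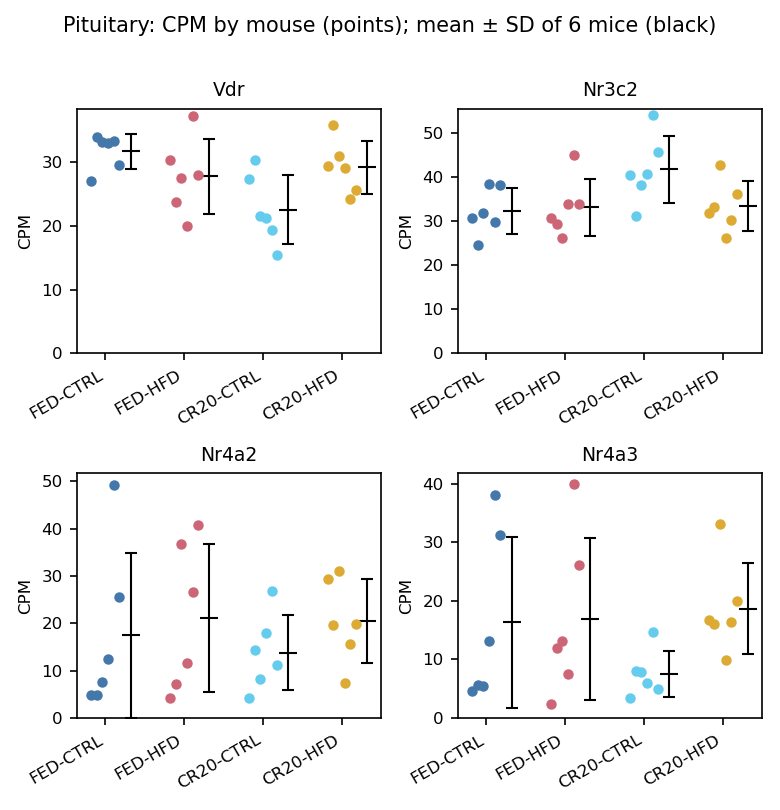
CPM by mouse in the pituitary for Vdr, Nr3c2, Nr4a2 and Nr4a3; points are mice and the black mark is the mean ± SD of 6 mice. Vdr reaches lowest and Nr3c2 highest in CR20-CTRL with overlap between groups, and Nr4a2 and Nr4a3 spread over more than 10-fold among the mice.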

How the data were processed

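The authors trimmed the reads with Trimmomatic, aligned them with STAR to GRCm39, counted them per Ensembl gene with Subread featureCounts and deposited whole-number counts without normalization; tool versions are not given in the sources used here. From these counts, genes were named and exon lengths and overlaps taken from GENCODE M39 (54749 of 55416 matched). The annotation used for counting was another one, and 667 counted genes had no match. The exon lengths, RPKM values and shared exon percentages thus need not hold for the exons that were counted. Low counts were filtered by filterByExpr, and edgeR 4.0.16 (R 4.3.3, TMM, quasi-likelihood test, two-sided, a mean per group) was fitted to the 24 libraries of a tissue, or to all 72 libraries for tissues. Alternatives were limma 3.58.1 voom with quality weights (the study's test), DESeq2 1.42.0, RLE factors, no filter, animal-number range as covariate, a minimum log2 fold change of 0.58, and leaving out mice. The members and gene lists were chosen with earlier results of these data known. Members were named where called, filled to 3 per tissue by smallest p. A standard error is the log2 fold change divided by the root of its F statistic. On simulated data edgeR recovered 166 to 199 of 200 genes changed by log2 fold change 2, with at most 18 wrong calls. These changes were larger than those of the members called between groups, and no library that stood apart was simulated. The recovery therefore does not carry over to the members. The same mouse gave all 3 tissues by its label; deviations of its libraries from the group means had median correlations of 0.0591, 0.039 and 0.0716 between tissues, and the mouse served as a replicate block in an alternative. No 2 libraries held identical counts. The labels do not give litters, which were split between the diets, so litter could not be a block. Results of 1 listed gene are not reported here.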

Additional observations from a re-analysis of the deposited data

Results flagged for a closer look

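Single values that stood apart were looked for in 68 groups of 6 mice. These covered the named members and, added to them, Esr1, Vdr, Esrrg and Nr2f2 in eWAT, Ppard in liver and Nr4a2 in pituitary. In 5 groups the gap of a value to its neighbour was past the limit of Dixon's test. The gap was taken as a share of the group's range in log2 CPM. Chance passes this limit in about 1 in 20 groups. The added genes were singled out after their values were seen, so the 5 groups cannot be set against that share. In eWAT of FED-HFD, mouse 23 was lowest for Thra (0.641 of the range) and Rxra (0.632). In eWAT of CR20-CTRL, mouse 5 was highest for Esr1 (0.745), Vdr (0.636) and Nr2f2 (0.674). The response of Thra to the diet in eWAT differed between the offspring of CR20 and FED dams by an interaction term of 0.54 on the log2 scale (0.539 before rounding, adjusted p = 0.0378 by edgeR).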

How the results depend on the processing

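Over all alternatives no named result changed direction. In eWAT, the 3 members called in CR20-HFD against FED-HFD became 6 by voom with quality weights, 5 by DESeq2, 1 with no filter on low counts and 5 without CR20-CTRL mice 4 and 5 and CR20-HFD mice 6 and 7, and 1 to 5 when 1 mouse was left out; the 3 called in FED-HFD against FED-CTRL became 1 at an absolute log2 fold change of at least 0.58 and 2 to 4 without 1 mouse; the 1 called for the interaction became 2 by DESeq2, 0 at that minimum and 0 without those 4 libraries, and 0 to 2 without 1 mouse. In liver, 0 members in FED-HFD against FED-CTRL became 1 by voom, 1 by DESeq2 and 1 without CR20-CTRL mice 4 and 5 (0 to 1 without 1 mouse), and the 1 member of CR20-HFD against CR20-CTRL became 0 without those 2 mice. In pituitary, 0 in CR20-CTRL against FED-CTRL became 1 by voom and 1 by DESeq2 (0 to 1 without 1 mouse). Between pituitary and eWAT, 18 became 30 with no minimum fold. The cause of these shifts was not tested. The 3 fits without several mice were chosen after seeing the data. With the replicate block for the mouse the tissue calls were 20, 18 and 26 in place of 21, 18 and 26, and it changed no other count; within a tissue the groups hold different mice, and a litter block was not run because the labels give no litter. Members under about 1 CPM, such as liver Rarb, are limited by depth.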
